A study of Mus musculus with 4 samples.

Results

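The *Spata* (spermatogenesis-associated) and *Tex* (testis-expressed) genes of the mouse were followed in GFP-positive germ cells sorted from testes at postnatal day 18. Members were every gene whose symbol is Spata or Tex followed by a number, apart from *Spata16*, *Spata22*, *Tex11*, *Tex12* and *Tex40*. This rule took 50 of the 24411 genes listed and used no measured value. By what their proteins are known to do, 2 of them were sorted as meiotic, 17 as spermiogenic and 11 as broadly expressed, and the other 20 were given no role. *Tex19.1* and *Tex19.2*, whose symbols hold a point, fall outside the rule.

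The symbols name no gene family. Genes were called *Spata* or *Tex* because their transcripts were found in testis, and the proteins range from bridges between dividing germ cells to sperm tail parts and to enzymes that every cell uses. Spermatogenesis runs from spermatogonia through meiotic prophase (leptotene, zygotene, pachytene and diplotene) and the meiotic divisions to round spermatids, which form the acrosome, flagellum and midpiece during spermiogenesis. Many genes for sperm parts are first transcribed in pachytene spermatocytes, well before the structure itself is made.

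RNA was sequenced from 2 testes labelled *Zfp541*+/- (controls 1 and 2) and 2 testes labelled *Zfp541* KO, to ask how loss of the zinc finger protein ZFP541, a component of a deacetylase complex of meiotic prophase, changes transcription. All 4 carried a knock-in, *Rec8*-3xFLAG-HA-p2A-GFP, which couples GFP to the meiotic cohesin REC8, so that GFP marks cells that express *Rec8*. Both testes labelled *Zfp541* KO were homozygous for the knock-in, whereas 1 control testis was heterozygous and the other homozygous, and the labels do not say which. The labels give the strain as C57BL/6 and CBA mixed and the methods as C57BL/6. The knockout allele is a CRISPR/Cas9 deletion that runs from exon 1 across many further exons. Values are TPM, a measure of transcript abundance scaled for gene length and to the same total in each library, so the depth is unknown and counting error cannot be stated.

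For the targeted gene *Zfp541*, controls 1 and 2 held 112 and 72.2 TPM, and the KO-labelled libraries 136 and 151 TPM. Its transcript was thus not lower under the KO label, although TPM given per gene does not tell deleted exons from the remaining ones. Each direction below is drawn from the label alone. The controls were also unlike each other. Leydig cell markers, which belong to the steroid-making cells between the tubules, summed to 3604 TPM over 6 genes in control 1 and 19.4 TPM in control 2, with 392 and 606 TPM in the KO-labelled libraries. Of 10 macrophage and red blood cell markers the sum was 2117 TPM in control 1, 42.0 TPM in control 2, and 1717 and 1531 TPM in the KO-labelled libraries. Most of this came from macrophage genes such as *Lyz2*, and the red blood cell genes did not all follow it. *Hba-a1* stood at 62.05 and 17.11 TPM in the controls, whereas *Hba-a2* was at 244 TPM in KO-labelled library 2 and at 0 elsewhere. Sertoli cell markers, from the supporting cells of the tubule, were present in all 4 libraries, with sums of 1784 to 2895 TPM over 10 genes. Members were for this reason also set against each control on its own.

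Together the 50 genes held 4996 and 6363 TPM in controls 1 and 2, and 5388 and 5233 TPM in the KO-labelled libraries. Most of this came from a few genes. *Tex101* alone made up 27.1% of the sum in control 1 and between 52.4% and 57.0% in the other 3 libraries. Without it the sum was 3642 and 2736 TPM in the controls, against 2404 and 2491 TPM in the KO-labelled libraries. In all, 9 members had a mean of at least 100 TPM, and the same number ranked in the top 10% of all genes. At the other end, 6 were listed at 0 TPM in all 4 libraries (*Spata3*, *Spata31*, *Spata31d1c*, *Spata32*, *Tex13a* and *Tex29*), and 12 more had a mean under 1 TPM, with no value above 2.30 TPM. These 18 were not tested, which left 32.

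**Figure D1:**
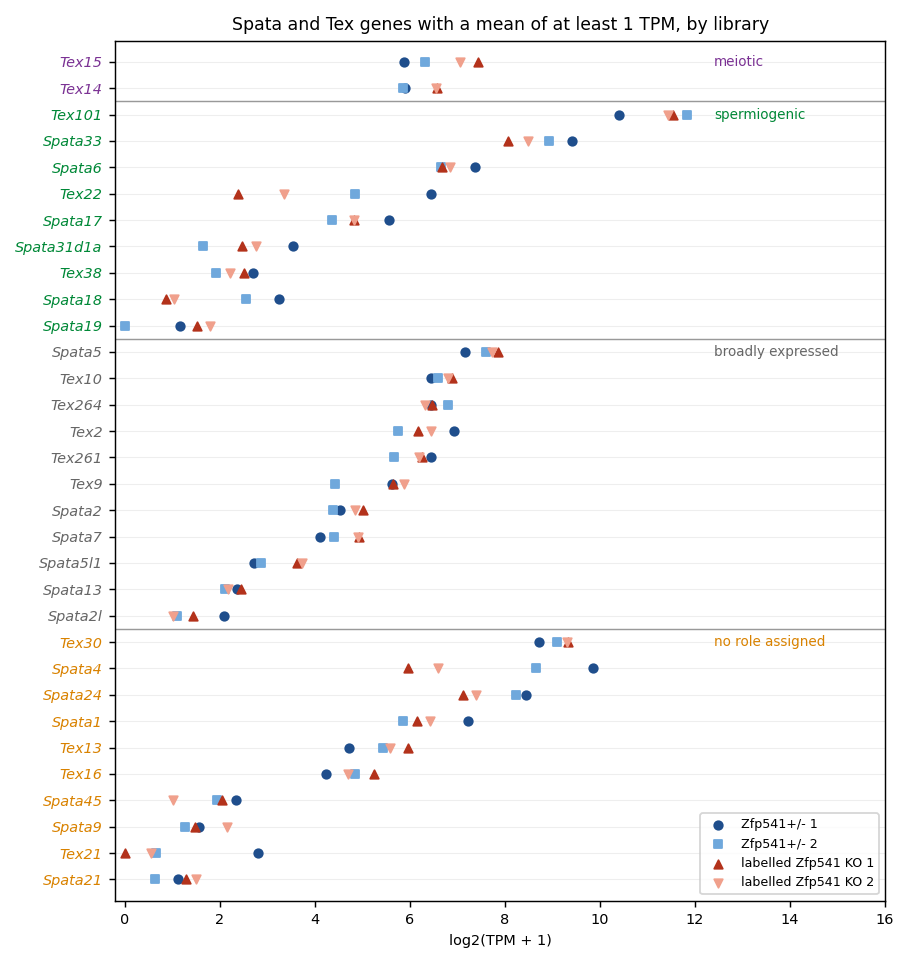
Level of each of the 32 *Spata* and *Tex* genes tested, on the log2(TPM + 1) axis, with 1 point for each library and genes grouped by role. *Tex101* stands highest, while *Spata4*, *Tex22* and *Spata18* show both KO-labelled points well to the left of both controls.

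The comparison of the libraries labelled *Zfp541* KO with the *Zfp541*+/- controls was fitted with limma on log2(TPM + 1) over all 14512 genes whose mean reached 1 TPM. Of the 32 members tested, 0 passed an FDR of 0.05, as did 0 (0.0%) of all genes. Adjusted p-values by limma ran from 0.310 to 0.989 among the members. At an unadjusted p under 0.05 there were 7 members, of which *Tex15* and *Tex14* were higher and *Spata4*, *Spata24*, *Spata18*, *Tex22* and *Spata33* lower in the KO-labelled libraries, against 2091 of all genes (1549 higher and 542 lower). A variance model without a trend also gave 0 members past the FDR.

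Both KO-labelled libraries were above both controls in 12 of the 32 members (37.5%), against 38.6% of all genes. They were below both controls in 6 members (18.8%), against 12.1% of all genes, and the groups overlapped in the other 14. A difference of at least 2-fold was seen upward in *Tex15* and *Spata19* (6.25%, against 8.99% of all genes) and downward in 5 members, *Spata4*, *Tex22*, *Spata18*, *Tex21* and *Spata24* (15.6%, against 5.22% of all genes). The shares counted upward were close to the background. The median log2 fold change was 0.12 in the members and 0.28 in all genes tested.

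The split into 19 higher and 13 lower members depended on the scaling, since the median of all genes stood at 0.28. After median-ratio scaling, which brought that median to -0.0044, the split was 14 higher and 18 lower, and after quantile normalization 15 and 17. Relative to the median of all genes the split was 15 above and 17 below under each of the 3 scalings. Median-ratio scaling moves all genes of a library nearly alike, so it could hardly change this split. Without control 1 the split was 13 above and 19 below, and without control 2 it was 14 and 18.

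**Figure D2:**
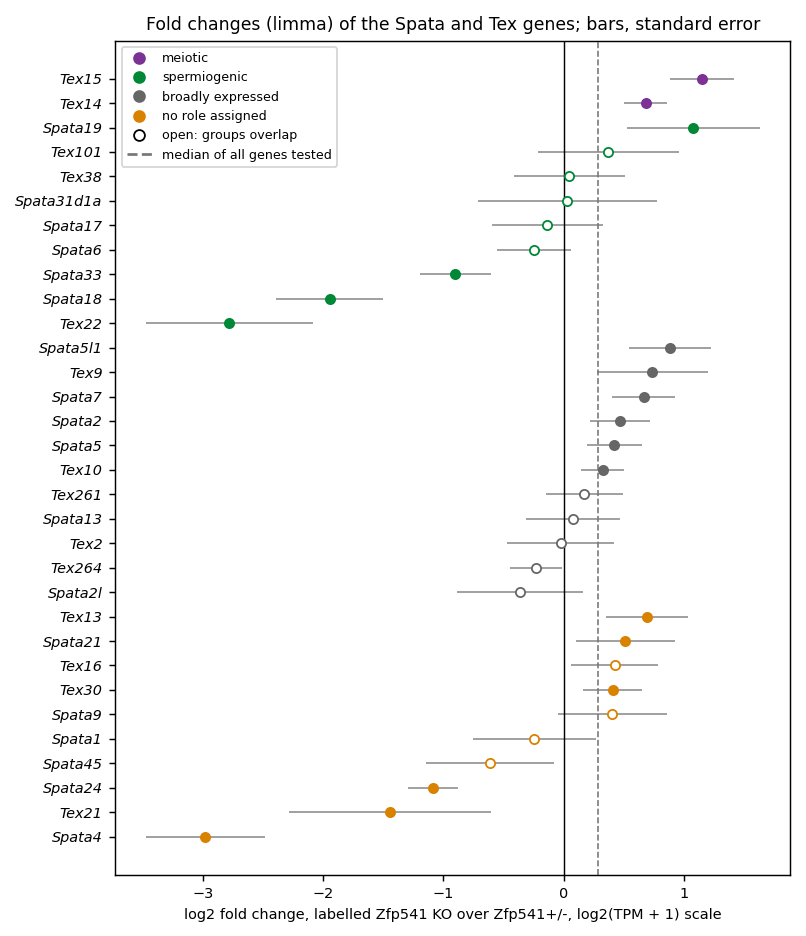
Log2 fold change of each member tested (points, limma on log2(TPM + 1)) with its standard error (bars), coloured by role. Filled points are members whose groups do not overlap, open points those that overlap, the solid line is 0 and the dashed line the median of all genes tested, 0.28; *Spata4* and *Tex22* lie farthest to the left.

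Of the 7 members with an unadjusted p under 0.05, the bases just before the start of transcription are shown for the 4 with an entry in RefSeq's promoter table (GRCm38.p6), since these genes are among those that lead the differences. *Tex15*, *Tex22* and *Spata24* were not matched in it. Each is the 150 bases before the RefSeq start on the + strand, written 5′ to 3′, with matches to a searched motif in capitals. *Tex14* is at chr11:87404915-87405064, *Spata33* at chr8:123212708-123212857, *Spata18* at chr5:73651230-73651379 and *Spata4* at chr8:54600631-54600780. For *Spata33* the GENCODE gene starts earlier than the RefSeq transcript, so the last bases shown lie inside the gene as GENCODE places it.
Tex14: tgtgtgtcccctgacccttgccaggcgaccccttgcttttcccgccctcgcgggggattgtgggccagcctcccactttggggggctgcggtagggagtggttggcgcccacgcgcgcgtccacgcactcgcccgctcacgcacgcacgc
Spata33: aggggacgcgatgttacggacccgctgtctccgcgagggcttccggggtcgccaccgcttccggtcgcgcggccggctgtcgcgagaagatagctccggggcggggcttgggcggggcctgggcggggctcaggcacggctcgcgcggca
Spata18: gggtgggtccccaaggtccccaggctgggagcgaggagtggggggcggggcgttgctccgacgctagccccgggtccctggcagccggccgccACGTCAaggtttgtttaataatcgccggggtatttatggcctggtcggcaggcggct
Spata4: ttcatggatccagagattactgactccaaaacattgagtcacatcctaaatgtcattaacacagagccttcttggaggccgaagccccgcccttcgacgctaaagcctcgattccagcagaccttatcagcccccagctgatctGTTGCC

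The *Spata33* stretch held 24 CpG dinucleotides, *Tex14* 16, *Spata18* 13 and *Spata4* 5. The motifs searched, on both strands, were AACTG (the MYB core), GTTGCC (an RFX half-site) and TGACGT (from the cAMP response element), none of which contains another. The capitals in *Spata4* are GTTGCC, and those in *Spata18* are TGACGT read on the other strand. Outside the stretches shown, but within the 300-base promoters described next, *Tex14* held AACTG and *Spata33* held GTTGCC. The table held 300-base promoters (250 bases before and 50 after the start) for 42 of the 50 members, with 51 starts. Of these, 37.3% held AACTG, 21.6% GTTGCC and 11.8% TGACGT, against 44.8%, 12.5% and 7.5% of all 32851 promoters. The median number of CpG dinucleotides per promoter was 22 in broadly expressed members, 3 in spermiogenic members and 4 in members with no role, against 7 in all promoters.

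Both meiotic members were higher in the KO-labelled libraries. *Tex15* is needed for repair of meiotic double-strand breaks and for piRNA-directed DNA methylation (chr8:33516738-33585582, + strand). It stood at 57.5 and 79.0 TPM in the controls and at 173 and 131 TPM in the KO-labelled libraries, so that the lower KO-labelled library was well above the higher control. Its log2 fold change was 1.15 (standard error, SE, 0.27, unadjusted p = 0.0108 and adjusted p = 0.310 by limma).

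*Tex14* encodes the protein that keeps the bridges between daughter germ cells open (chr11:87405065-87555823, + strand). It stood at 58.9 and 56.7 TPM in the controls and at 94.2 and 92.1 TPM in the KO-labelled libraries. The replicates of each group lay close together, and the groups did not overlap. The log2 fold change was 0.68 (SE 0.18, unadjusted p = 0.0163 and adjusted p = 0.315 by limma). Beside these genes, 7 of the 8 leptotene and zygotene markers found were higher in both KO-labelled libraries than in either control. Over all genes this share was 38.6%. The 8 markers summed to 843 and 1180 TPM in the controls, against 1836 and 1882 TPM in the KO-labelled libraries. Whether a different mix of stages has a part in the *Tex14* and *Tex15* values was not tested. In bulk libraries, fewer cells of a type and less RNA per cell cannot be told apart.

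The spermiogenic members did not all lie on one side of the controls. Of the 17, 9 passed the filter on low values. Of these, *Tex22*, *Spata18* and *Spata33* were below both controls in both KO-labelled libraries, *Spata19* was above both, and 5 overlapped. Of all genes, 12.1% lay below both controls and 38.6% above both. The 17 genes summed to 2363 and 4266 TPM in the controls, against 3394.9 and 3262.5 TPM in the KO-labelled libraries, between the controls. With *Tex101* left out, the rest summed to 1009 and 639 TPM in the controls, against 411 and 520 TPM in the KO-labelled libraries. Most of this remainder was *Spata33*. The median log2 fold change was -0.14 over the 9, and 7 of them lay below the median of all genes under each of the 3 scalings. Leaving out control 1 this number was 6, and leaving out control 2 it was 7.

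*Tex22*, placed with the sperm head and acrosome genes (chr12:113074502-113088917, + strand), stood at 86.4 and 27.6 TPM in the controls. It was at 4.23 and 9.14 TPM in the KO-labelled libraries, well under the lower control. The log2 fold change was -2.78 (SE 0.69, unadjusted p = 0.0139 and adjusted p = 0.310 by limma). On the log2 scale control 2 minus control 1 was -1.61, and the KO-labelled mean minus control 2 was -1.97.

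*Spata18* encodes Mieap, a p53-induced protein of mitochondrial quality control (chr5:73651379-73679512, + strand). It stood at 8.47 and 4.85 TPM in the controls and at 0.820 and 1.05 TPM in the KO-labelled libraries. No KO-labelled value came near the controls, though all were low. Its log2 fold change was -1.95 (SE 0.44, unadjusted p = 0.0102 and adjusted p = 0.310 by limma), a value that the added 1 TPM holds down.

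*Spata33*, whose protein carries the phosphatase calcineurin to sperm mitochondria (chr8:123212832-123222046, + strand), was the most abundant spermiogenic member after *Tex101*. It stood at 684 and 482 TPM in the controls and at 265 and 356 TPM in the KO-labelled libraries. The groups did not overlap, with a log2 fold change of -0.90 (SE 0.29, unadjusted p = 0.0341 and adjusted p = 0.324 by limma). *Spata19*, which encodes a mitochondrial protein of the sperm midpiece, was higher, at very low levels. It was at 1.24 TPM in control 1, listed at 0 in control 2, and at 1.88 and 2.46 TPM in the KO-labelled libraries (log2 fold change 1.08, SE 0.55, adjusted p = 0.426 by limma).

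The most abundant of all members was *Tex101*, which encodes a surface glycoprotein that sperm need to pass into the oviduct. It was at 1354 TPM in control 1, 3627 TPM in control 2, and 2984 and 2742 TPM in the KO-labelled libraries. Both KO-labelled values thus lay between the controls, and the log2 fold change of 0.37 (SE 0.59, adjusted p = 0.788 by limma) was smaller than the difference of 1.42 between the controls. The 10 spermatogonial markers summed to 461 and 1002 TPM in the controls, against 780 and 621 TPM in the KO-labelled libraries, and the part of those cells, which a sort for GFP made with REC8 should leave out, was not tested in the *Tex101* values.

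A similar placing between the controls, but with control 1 the higher, was seen for the other 4 spermiogenic members tested. *Spata6*, needed for the piece that joins head and tail, stood at 165 and 99.1 TPM in the controls and at 102 and 114 TPM in the KO-labelled libraries. *Spata17*, a calmodulin-binding flagellar protein gene, stood at 45.9 and 19.7 TPM in the controls and at 27.3 TPM in both KO-labelled libraries. Levels of *Spata31d1a*, of the acrosome-linked SPATA31 family, were 10.5 and 2.13 TPM in the controls, against 4.54 and 5.79 TPM in the KO-labelled libraries. *Tex38*, whose protein works with a palmitoyltransferase in sperm head shaping, stood at 5.50 and 2.80 TPM in the controls and at 4.71 and 3.61 TPM in the KO-labelled libraries. In these 4 genes the sign of the difference turned with the control chosen. Their log2 fold changes were -0.25, -0.14, 0.03 and 0.05.

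The 8 spermiogenic members that were not tested did not exceed 0.960 TPM in any library. They include the remaining SPATA31 genes and genes for proteins inside the sperm tail microtubules. Of 10 round spermatid markers 4 passed the filter. *Tnp1*, *Prm1* and *Prm2* did not exceed 1.48 TPM, and *Spaca7* was at 0 throughout. *Spaca1*, which made up most of the sum in the KO-labelled libraries, stood at 7.34 and 13.9 TPM in the controls and at 27.0 and 26.6 TPM in the KO-labelled libraries, *Tssk6* ran from 2.56 to 8.83 TPM, and *Tnp2* was at 7.59 TPM in control 1 and under 1 TPM elsewhere. The list summed to 22.8 and 19.4 TPM in the controls, against 38.6 and 36.7 TPM in the KO-labelled libraries. Of 11 pachytene markers, 9 were lower in the KO-labelled mean and 6 of these below both controls. Of all genes tested, 31.0% were lower and 12.1% below both controls. The 11 pachytene markers summed to 6609 and 3183 TPM in the controls, against 2321 and 3204 TPM in the KO-labelled libraries. The part of these cells in the *Tex22*, *Spata18* and *Spata33* values was not tested.

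All 11 broadly expressed members passed the filter. Of them, 8 had a higher mean and 3 a lower mean in the KO-labelled libraries, where 69.0% of all genes tested were higher. The largest fold change in size was 0.88 on the log2 scale. In 6 of them both KO-labelled libraries were above both controls, and in 0 below both, beside 38.6% and 12.1% of all genes. The median log2 fold change was 0.32, beside 0.28 in all genes tested, and after median-ratio scaling the split became 5 higher and 6 lower.

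*Spata5* and *Spata5l1* are paralogues known for AAA ATPases of ribosome biogenesis, although GENCODE lists the matched *Spata5l1* model as a processed transcript, not as protein-coding. *Spata5* stood at 143 and 192 TPM in the controls and at 232 and 212 TPM in the KO-labelled libraries (log2 fold change 0.42, SE 0.23, adjusted p = 0.450 by limma). *Spata5l1* stood at 5.60 and 6.31 TPM in the controls and at 11.3 and 12.3 TPM in the KO-labelled libraries (log2 fold change 0.88, SE 0.34, adjusted p = 0.356 by limma). Neither overlapped between groups, and the second was the less abundant paralogue in every library.

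*Spata2*, whose protein links the deubiquitinase CYLD to the linear ubiquitin ligase, stood at 22.2 and 19.8 TPM in the controls and at 31.1 and 27.8 TPM in the KO-labelled libraries. Its paralogue *Spata2l* stood at 3.24 and 1.13 TPM in the controls and at 1.71 and 1.01 TPM in the KO-labelled libraries, where the groups overlapped. Their log2 fold changes were 0.47 (SE 0.25, adjusted p = 0.440 by limma) and -0.36 (SE 0.52, adjusted p = 0.763 by limma), and the difference between the paralogues was not tested.

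*Spata7*, known for the connecting cilium of photoreceptors, stood at 16.2 and 20.1 TPM in the controls and at 29.2 and 29.1 TPM in the KO-labelled libraries. The groups were apart, with a log2 fold change of 0.66 (SE 0.26, adjusted p = 0.362 by limma). *Tex10*, for a subunit of the complex around PELP1 and SENP3 that acts in ribosome biogenesis, stood at 86.3 and 95.6 TPM in the controls and at 116 and 111 TPM in the KO-labelled libraries. Its log2 fold change of 0.32 was -0.00012 after median-ratio scaling.

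*Tex9*, which encodes a centriolar satellite protein, stood at 48.2 and 20.5 TPM in the controls and at 49.0 and 57.5 TPM in the KO-labelled libraries. Both KO-labelled values were above both controls, but only narrowly above control 1. This value is uncertain, because 32.3% of the exonic bases of *Tex9* lie in exons of *Mns1* on the other strand and 70.4% of the 75-base stretches of its longest transcript are shared with it. *Mns1* stood at 457 and 152 TPM in the controls and at 200 and 266 TPM in the KO-labelled libraries.

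The other 4 broadly expressed members overlapped between groups. *Tex2*, for a lipid-binding protein of the endoplasmic reticulum, stood at 121 and 53.0 TPM in the controls and at 71.2 and 86.5 TPM in the KO-labelled libraries. *Tex261*, for another membrane protein of that compartment, stood at 85.6 and 49.8 TPM in the controls and at 75.5 and 71.9 TPM in the KO-labelled libraries. Both genes thus lay between the controls, as did *Spata1*. *Tex264*, for a receptor in autophagy of the endoplasmic reticulum, stood at 85.9 and 111 TPM in the controls and at 87.4 and 78.9 TPM in the KO-labelled libraries. *Spata13* stood at 4.11 and 3.29 TPM in the controls and at 4.45 and 3.48 TPM in the KO-labelled libraries.

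Members with no assigned role held the lowest fold change. *Spata4* (chr8:54600781-54610098, + strand) stood at 924 and 404 TPM in the controls and at 61.3 and 95.9 TPM in the KO-labelled libraries. The lower control was thus several times the higher KO-labelled value. Its log2 fold change was -2.98 (SE 0.49, unadjusted p = 0.00299 and adjusted p = 0.310 by limma), and on that scale the KO-labelled mean minus control 1 was -3.57 and minus control 2 -2.38. Of its exonic bases, 11.1% lie in a gene on the other strand.

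*Spata24* stood at 347 and 301 TPM in the controls and at 138 and 167 TPM in the KO-labelled libraries. The groups did not overlap. GENCODE holds a second, overlapping model under the name SPATA24, which takes in 41.9% of the exonic bases of *Spata24*. This model shares 41.6% of the 75-base stretches of the longest *Spata24* transcript. The *Spata24* value is uncertain if the annotation used for counting holds both models. The log2 fold change was -1.09 (SE 0.21, unadjusted p = 0.00523 and adjusted p = 0.310 by limma). *Tex21* was at 5.93 TPM in control 1 and at 0.570 TPM in control 2, with 0 and 0.470 TPM in the KO-labelled libraries. Its difference therefore rested mostly on control 1 (log2 fold change -1.44, SE 0.84, adjusted p = 0.475 by limma).

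*Tex30* was the most abundant of the higher genes in this class, at 418 and 549 TPM in the controls and at 641 and 628 TPM in the KO-labelled libraries. Its log2 fold change was 0.40 (SE 0.24, adjusted p = 0.484 by limma), and 17.5% of its exonic bases lie in exons of the GENCODE model *Gm29247*. The row *Tex13*, an older symbol of *Tex13b* on the X chromosome, stood at 25.3 and 42.2 TPM in the controls and at 61.0 and 46.7 TPM in the KO-labelled libraries. *Tex16*, also on the X chromosome, overlapped between groups, at 17.8 and 27.9 TPM in the controls against 36.7 and 24.9 TPM in the KO-labelled libraries. Of 4 X-linked members, these 2 were the only ones that passed the filter.

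The remaining genes of the class were lower or less separated. *Spata1* stood at 147 and 56.4 TPM in the controls and at 69.5 and 85.1 TPM in the KO-labelled libraries, between the controls. *Spata45* stood at 4.08 and 2.81 TPM in the controls and at 3.10 and 1.01 TPM in the KO-labelled libraries. *Spata21* stood at 1.18 and 0.560 TPM in the controls and at 1.44 and 1.83 TPM in the KO-labelled libraries, a small step up at the edge of the filter. Of the 10 members with no role that were tested, 5 had a higher and 5 a lower mean in the KO-labelled libraries. Of all genes tested, 69.0% were higher and 31.0% lower.

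The controls differed more than the KO-labelled libraries did. The median difference between the controls, without its sign, was 0.65 on the log2 scale over the 32 members, and 1.16 over the 9 spermiogenic members, whereas the KO-labelled libraries differed by a median of 0.27 over the 32 and 0.26 over the 9. For all genes tested the medians were 0.65 between the controls and 0.16 between the KO-labelled libraries. In 17 of the 32 members the gap between the controls was wider than the gap between the group means. The same held for 8934 of all 14512 genes tested. In 8 of the 14 overlapping members both KO-labelled libraries lay between the controls, with control 1 the higher in 7 and control 2 in *Tex101*. Control 1 was the higher control in 22 of the 32 members and in 9581 of all 14512 genes tested. The share of all genes that lay between the controls was not counted.

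Against control 1 alone the median log2 difference was -0.05 in the members, and against control 2 alone 0.29, where all genes tested gave 0.15 and 0.44. For the spermiogenic members these medians were -0.73 and 0.12, for the broadly expressed members 0.14 and 0.51, and for those with no role -0.29 and 0.16. *Spata4*, *Tex22*, *Spata18*, *Spata24* and *Spata33* were lower, and *Tex14* and *Tex15* higher, against either control. These are the members with an unadjusted p under 0.05 by limma, so this agreement was partly built into their choice. Other members also stood on the same side of both controls, such as *Spata5l1* and *Spata7* higher and *Tex21* lower. Of all genes tested, 38.6% had both KO-labelled libraries above both controls and 12.1% below both.

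**Figure D3:**
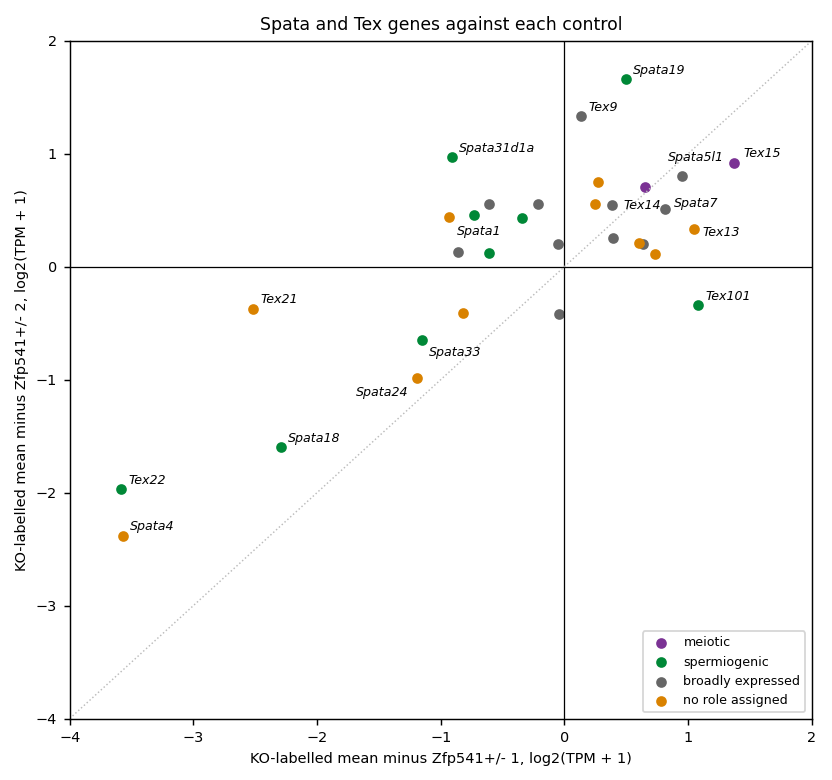
Difference of the KO-labelled mean from control 1 (x axis) and from control 2 (y axis), both on the log2(TPM + 1) scale, for each member tested, coloured by role. The dotted line marks equal differences; *Spata4*, *Tex22* and *Spata18* lie low on both axes, while *Spata31d1a* and *Tex101* sit in the quadrants where the controls give opposite signs.

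Genes whose proteins are known to work with a member were taken from a fixed list of 22, of which 21 were found and 18 tested. By limma 0 passed the FDR, and 3 had an unadjusted p under 0.05, namely *Cyld*, *Kif23* and *Ppp3r2*, beside 2091 of the 14512 genes tested. Both KO-labelled libraries were above both controls in 5 of the 18 and below both in 3, beside 38.6% and 12.1% of all genes, with a median log2 fold change of 0.20. The genes below are given beside the member they belong with.

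*Ppp3r2* encodes the testis form of the regulatory subunit of calcineurin, the phosphatase that SPATA33 carries. It stood at 160 and 43.6 TPM in the controls and at 3.39 and 6.57 TPM in the KO-labelled libraries, far under either control. The log2 fold change was -3.88 (SE 0.73, unadjusted p = 0.00498 and adjusted p = 0.310 by limma), below that of *Spata33* at -0.90. The catalytic subunit gene *Ppp3cc* stood at 187 and 131 TPM in the controls and at 113 and 127 TPM in the KO-labelled libraries, with a log2 fold change of -0.38 (SE 0.25, adjusted p = 0.514 by limma). *Spata33*, *Ppp3r2* and *Ppp3cc* were thus each below both controls in both KO-labelled libraries, as were 12.1% of all genes tested. The step was smallest for *Ppp3cc*, whose higher KO-labelled value of 127 TPM lay just under the lower control at 131 TPM. Other calcineurin genes were not on the list, so a joint fall of calcineurin genes was not tested.

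*Cyld*, the deubiquitinase gene beside *Spata2*, stood at 17.6 and 16.5 TPM in the controls and at 41.1 and 33.2 TPM in the KO-labelled libraries (log2 fold change 1.07, SE 0.26, unadjusted p = 0.0123 and adjusted p = 0.310 by limma). *Rnf31*, the linear ubiquitin ligase gene, overlapped between groups, at 13.2 and 18.8 TPM in the controls against 22.6 and 15.6 TPM in the KO-labelled libraries. Of the bridge genes beside *Tex14*, *Kif23*, a mitotic kinesin gene of the midbody, stood at 40.5 and 39.7 TPM in the controls and at 78.9 and 65.7 TPM in the KO-labelled libraries. This was a log2 fold change of 0.83 (SE 0.21, unadjusted p = 0.0139 and adjusted p = 0.310 by limma). *Cep55* stood at 68.8 and 44.4 TPM in the controls and at 68.7 and 69.3 TPM in the KO-labelled libraries, and *Rbm44* at 101 and 48.0 TPM against 100.4 and 108 TPM. In both, the KO-labelled values were level with control 1 and above control 2.

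Of the 5 ribosome biogenesis genes beside *Tex10*, *Las1l* (34.7 and 34.3 TPM in the controls, 48.3 and 39.9 TPM in the KO-labelled libraries) and *Nol9* (24.8 and 19.8 TPM, then 31.1 and 32.0 TPM) did not overlap between groups, while *Pelp1*, *Senp3* and *Wdr18* did. Next to *Tex101*, the surface protein gene *Ly6k* stood at 602 and 1122 TPM in the controls and at 1328 and 1236 TPM in the KO-labelled libraries, with 47.6% of its exonic bases in a gene on the other strand. *Adam3*, whose protein depends on TEX101 for its maturation, stood at 283 and 16.9 TPM in the controls and at 4.99 and 10.8 TPM in the KO-labelled libraries. Control 2 minus control 1 was -3.99 on the log2 scale, and the log2 fold change was -3.09 (SE 1.42, adjusted p = 0.396 by limma).

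**Figure D4:**
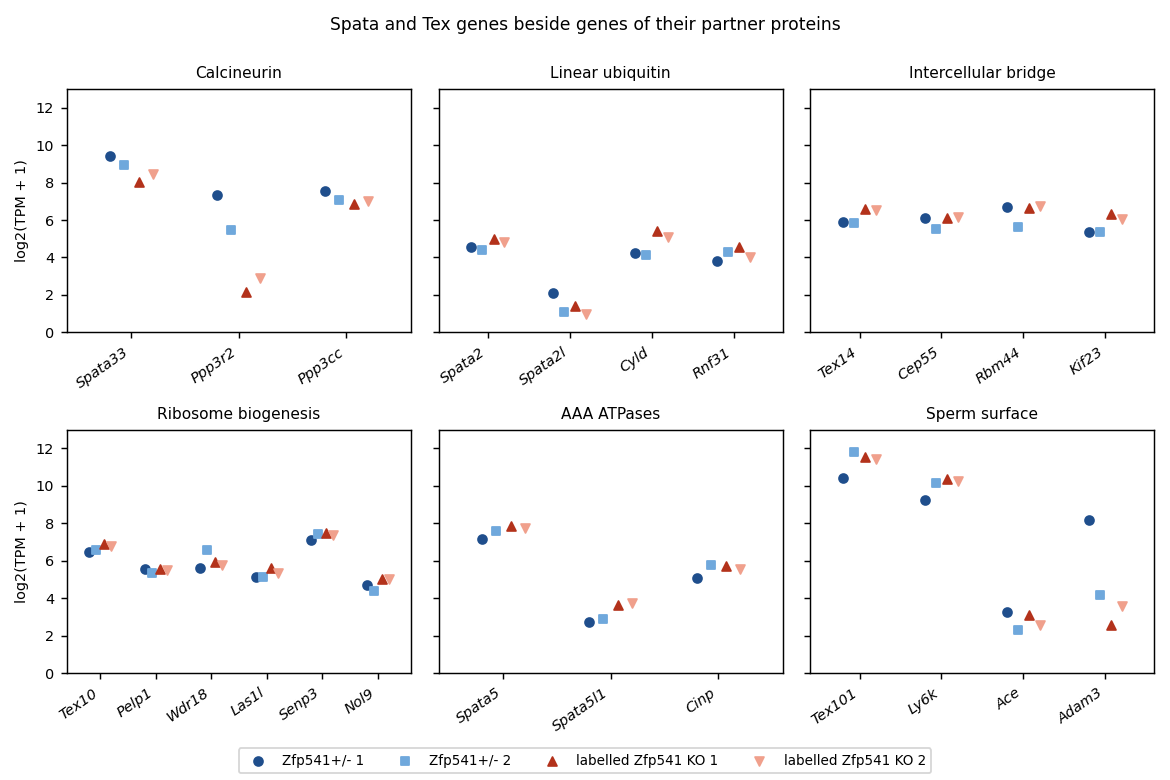
Level on the log2(TPM + 1) axis of *Spata* and *Tex* genes and of genes of their partner proteins, with 1 point for each library. *Ppp3r2* drops much farther below the controls than *Spata33*, and *Cyld* and *Kif23* sit above both controls in both KO-labelled libraries.

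The tested members did not sit in 1 cluster of the genome. They lay on 15 chromosomes, with 4 each on chromosome 4 (*Spata6*, *Tex10*, *Tex38* and *Spata21*) and chromosome 8 (*Tex15*, *Spata4*, *Spata33* and *Spata2l*). *Spata33* and *Spata2l* are neighbours, 7.8 kb apart, and both had a lower mean in the KO-labelled libraries, although *Spata2l* overlapped between groups. *Spata31d1a* and *Spata31d1b* lie 2.0 kb apart on chromosome 13 and share 17.4% and 21.6% of their 75-base stretches with other transcripts, so their values may be split.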

How the data were processed

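Reads (single-end, TruSeq mRNA libraries) were trimmed by the authors with Trim Galore 0.5.0 and cutadapt 1.16, aligned to mm10 with STAR 2.6.0a and quantified with RSEM 1.3.1, per the methods and the submitters' processing notes, and 1 TPM value per gene and library was deposited. The strand setting of the counting is not given in the sources used here. The methods name RSEM for a differential test using TPM, which was not repeated here. Groups and replicate numbers came from the labels. The 14512 genes whose mean reached 1 TPM were fitted on log2(TPM + 1) by limma 3.58.1 (R 4.3.3), whose prior variance followed the mean, and p-values were adjusted over all of them by Benjamini and Hochberg (FDR 0.05). Simulated data were used to test the fit. With 2 testes per group, p-values measure the spread between these testes only. The members, roles and lists were chosen with earlier results of these data known. Named were *Zfp541*, tested members with a role, the 3 most abundant per class, the 10 largest rises and falls, the 3 nearest 0, paralogues, and partner genes with an unadjusted p under 0.05; other partner genes were named for the member they belong with. Positions, exon overlaps and shared 75-base stretches came from GENCODE (GRCm38, the same build as mm10), and promoters from RefSeq. The methods name UCSC mm10 as the source of the authors' gene annotation, so GENCODE models need not be in it. A date stands where the symbol should be in 27 rows, which were left unnamed.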

Additional observations from a re-analysis of the deposited data

How the results depend on the processing

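Pseudocounts of 0.1 and 5, no filter, a filter of 5 TPM, median-ratio scaling, quantile normalization, no variance trend, an FDR of 0.1, a replicate block and leaving out each library were tried. Of 35 named genes, 30 kept their sign wherever all 4 libraries were used, and 24 under every alternative. Members at least 2-fold higher numbered 1 with a pseudocount of 5, a filter of 5 TPM or quantile normalization, 0 with median-ratio scaling, and 1 to 3 leaving out a library; those at least 2-fold lower numbered 3 with a pseudocount of 5 or the filter, and 3 to 6. The meiotic median was 0.59 and 0.76 after median-ratio scaling and quantile normalization, the partner median -0.12 and 0.030, and 0.088 to 0.32 leaving out a library; the all-gene median was -0.0044 after median-ratio scaling. Signs turned for *Spata31d1a* (-0.053 with a pseudocount of 5, then -0.22 and -0.23 after the scalings), *Spata13* (-0.18 and -0.16), *Tex261* (-0.15 and -0.042), *Tex38* (-0.21 and -0.19) and *Tex10* (-0.00012, median-ratio scaling); the cause was not tested. Leaving out a library, signs also turned for *Spata1* (-0.93 to 0.44), *Spata17* (-0.73 to 0.45), *Spata2l* (-0.86 to 0.13), *Spata6* (-0.61 to 0.12), *Tex101* (-0.34 to 1.08), *Tex2* (-0.61 to 0.56), *Spata13* (-0.064 to 0.22), *Spata31d1a* (-0.91 to 0.97), *Tex261* (-0.21 to 0.56) and *Tex38* (-0.34 to 0.43). Members past the FDR ranged from 0 to 17, partner genes from 0 to 9 and all genes from 0 to 6985: 11 members and 6985 genes without control 1, 17 and 4123 without control 2, and 0 without either KO-labelled library. With 1 control, the spread is that of the KO-labelled pair alone, and the lone control is assumed to vary like it. With replicate number as a block, 0 members and 0 genes passed, as without it, and the adjusted p of *Spata4* was 0.469; same-numbered libraries correlated at -0.16 in their deviations, so the numbers were not shown to pair the testes. The crossed pairing, chosen after seeing the data, gave 1 member, 1 partner gene and 87 genes. TPM keeps no depth, so low genes carry an unknown counting error.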
